A study of Homo sapiens with 5 samples.

Results

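Cytosolic ribosomal protein genes encode the protein components of the ribosome that translates nuclear mRNA. They were chosen here by symbol as protein-coding genes named RPL or RPS with a number, with or without the endings A, X, L or L1, together with RPLP0, RPLP1, RPLP2 and RPSA. The rule gave 84 of the 60651 genes listed, 32 of the small subunit and 52 of the large subunit, and no expression value was used to choose them. The 5 libraries held poly(A) RNA of COLO 320DM, a cell line from a human colorectal adenocarcinoma. In 3 of them the cells had received an siRNA directed at USP17, a deubiquitinase encoded by the USP17L gene family, with the duplexes siIDT, sino4 and siSMPLT. In the other 2 they had received a non-silencing siRNA, siL2 or siNT. The series names its 2 controls, and the USP17 duplexes were assigned by elimination. Each duplex was represented by 1 library of 1 cell line, and no duplex sequence or time after transfection was at hand. The p-values therefore reflect how far these single libraries scatter, and that scatter may be technical.

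Each ribosome carries 1 copy of nearly every ribosomal protein, so these genes are transcribed at high and similar levels in growing cells. In vertebrates most of their mRNAs begin with a C followed by a run of pyrimidines, the 5′ terminal oligopyrimidine (TOP) tract. It is bound by LARP1 and places their translation under the kinase complex mTORC1, with the 4E-BP proteins as further repressors. Free ribosomal proteins have other roles as well, and RPL5 and RPL11, bound to 5S rRNA, inhibit the p53 ligase MDM2. A few members are paralogs that replace or resemble a standard ribosomal protein, among them RPL22L1, RPL26L1, RPS27L and the tissue-restricted RPL3L, RPL10L and RPL39L.

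The annotated starts of the paralog pairs are shown because the expressed paralogs lay at the low end of the members' fold changes. Each line gives 15 bases before the start and the bases from it on, so the first transcribed base is letter 16 of 30. Capitals mark the unbroken run of C and T that covers the first base, where it had 5 or more letters (RefSeq starts, GRCh38.p14). RPL22 lay at chr1:6199581-6199610 on the minus strand and RPL22L1 at chr3:170870181-170870210 on the minus strand. RPS27 lay at chr1:153990747-153990776 on the plus strand and RPS27L at chr15:63157463-63157492 on the minus strand. RPL26 lay at chr17:8383179-8383208 on the minus strand, and the start of RPL26L1 shown lay at chr5:172958714-172958743 on the plus strand. The start of RPL7L1 lay at chr6:42879601-42879630 on the plus strand.
RPL22: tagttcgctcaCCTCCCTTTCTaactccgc
RPL22L1: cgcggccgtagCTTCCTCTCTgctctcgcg
RPS27: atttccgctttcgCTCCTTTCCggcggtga
RPS27L: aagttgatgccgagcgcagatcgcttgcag
RPL26: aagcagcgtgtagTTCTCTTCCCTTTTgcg
RPL26L1: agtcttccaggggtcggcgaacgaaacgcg
RPL7L1: cggaagtgcggcgccgtagctaggagcgga
RPL22L1 shared a pyrimidine start with RPL22, and RPS27L, RPL26L1 and RPL7L1 had none. Among the other members, the start of RPS23, which helps form the decoding centre, lay at chr5:82278340-82278369 on the minus strand, and that of RPL24 at chr3:101686704-101686733 on the minus strand. These are shown as typical long tracts.
RPS23: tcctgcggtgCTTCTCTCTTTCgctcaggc
RPL24: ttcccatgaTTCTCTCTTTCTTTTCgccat

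A start table was available for 67 of the 84 members. A run of at least 5 pyrimidines covered the first base at any annotated start in 50 of them, or 74.6% (95% exact binomial interval 62.5% to 84.5%). The same run was found in 10.7% of the 15252 other coding genes and in 7 of 69 mitochondrial ribosomal protein genes (10.1%). The run was read on the gene's own strand only and may extend to either side of the first base. With a minimum run of 7, the shares were 71.6% of members and 7.36% of other coding genes. A match is a property of the annotated start, and use of these starts in COLO 320DM cells was not measured.

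Reads counted in genes numbered 31704821 to 36276143 per library, and with no read counted up to 3 are possible, which is 0.0827 to 0.0946 CPM (reads scaled to library size). Such limits and the intervals given below cover counting error only. The 26 genes named USP17L with a number had 0 reads in all 5 libraries, so the extent of the knockdown could not be read from them. Among genes known for this line, MYC averaged 3266 CPM with USP17 siRNA and 3917 CPM with control siRNA, and CDX2, an intestinal transcription factor, 1652 and 2052 CPM. CDX2 was called lower (log2 fold change -0.31, edgeR adjusted p = 0.0162), and MYC missed the threshold (-0.26, adjusted p = 0.0519). Of the markers examined, not all of them shown here, edgeR on read counts called 1 lower. DESeq2's Wald test and limma-voom each called 2 lower. Of the epithelial markers, the keratin KRT8 averaged 66.5 CPM with USP17 siRNA and 76.7 CPM with control siRNA, and its partner KRT18 averaged 62.6 and 69.1 CPM. EPCAM was low, at 2.56 and 2.25 CPM. None of these 3 was called, at log2 fold changes of -0.21, -0.14 and 0.18. The markers of other cell types PTPRC and COL1A1 stood at 46.3 and 14.2 CPM with USP17 siRNA and at 46.7 and 15.2 CPM with control siRNA, with no call. In such bulk libraries, a change in the mixture of cells and a change in RNA per cell cannot be told apart.

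Ribosomal protein mRNA made up a slightly larger part of the libraries with USP17 siRNA. The 84 genes took 4.56% of gene reads in siIDT, 4.58% in sino4 and 4.52% in siSMPLT, against 4.41% and 4.15% in siL2 and siNT. All 3 USP17 siRNA libraries lay above both controls, and the 2 controls differed from each other by more than any 2 USP17 siRNA libraries did. Exact binomial intervals of these shares were at most 0.0145 percentage points wide. RSEM expected counts, which share out reads that map to several genes, gave 7.09%, 7.14% and 7.02% with USP17 siRNA and 6.86% and 6.44% with control siRNA. Per unit of length, in TPM (transcript shares corrected for gene length), the 84 genes made up 20.0%, 20.0% and 19.7% of all transcripts with USP17 siRNA and 19.1% and 18.3% with control siRNA. The ratio of small to large subunit TPM was 0.609, 0.615 and 0.609 with USP17 siRNA, against 0.602 in both controls. Multi-mapping reads, which bear on these genes, were 11.5%, 11.6% and 11.6% of all reads with USP17 siRNA and 11.5% and 11.0% with control siRNA, lowest in siNT as the ribosomal protein share was, and their part in the result was not tested.

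**Figure D1:**
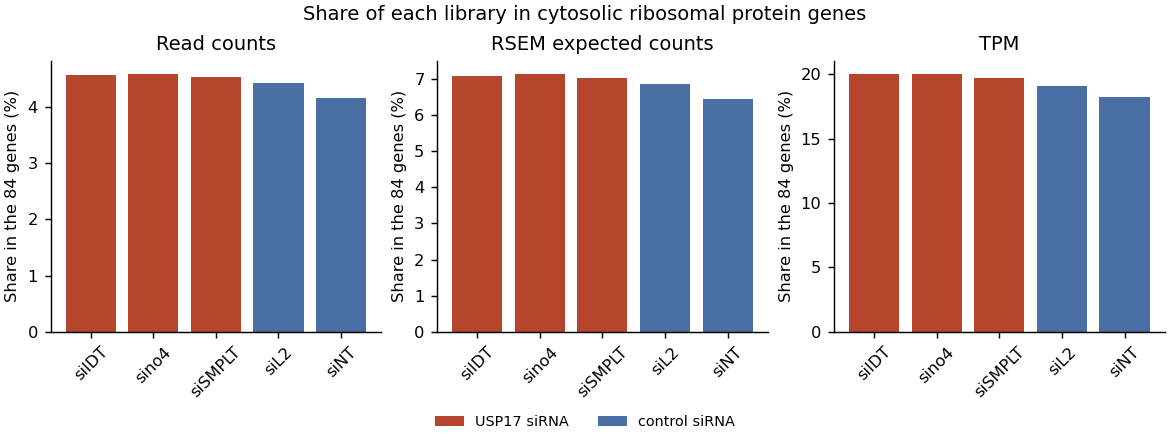
Share of each library (bars, in percent, axes from 0) in the 84 cytosolic ribosomal protein genes, from read counts, RSEM expected counts and TPM, 1 bar per library, USP17 siRNA in red and control siRNA in blue. In each measure all 3 USP17 siRNA libraries stood above both controls, and siNT was the lowest.

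The genes moved little one by one, and 1 of the 81 that could be tested was called. RPL7L1 was lower with USP17 siRNA and no member was higher (edgeR quasi-likelihood test on read counts, adjusted p under 0.05), while 10.5% of all 16341 genes tested were called, 4.64% higher and 5.82% lower. With RSEM expected counts RPL7L1 was again the single member called, against 9.31% of 16747 genes, 4.16% higher and 5.15% lower. At an unadjusted p under 0.05 the members numbered 3 higher and 3 lower, where the background was 14.2% and 14.7%. DESeq2's Wald test and limma-voom also called RPL7L1 alone, and neither called a member higher.

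Fold changes of the 81 members formed a narrow band just above 0. Their median log2 fold change was 0.049 with an SD across genes of 0.10, beside a median of 0.0053 and an SD of 0.41 over all genes tested. The 60 members at or above 8 on the log2 CPM scale had a median of 0.061 and an SD of 0.089, and the 695 other genes at that level had a median of -0.027 and an SD of 0.25. Fold changes were above 0 in 59 members and below 0 in 22, and 50.7% of all genes were above 0. In 23 members all 3 USP17 siRNA libraries exceeded both controls and in 5 they lay below both, where the background was 23.3% and 22.6%. By subunit, the median was 0.052 for the small subunit, with 27 of 32 above 0, and 0.049 for the large subunit, with 32 of 49 above 0. RSEM expected counts gave a median of 0.069, an SD of 0.093 and 64 members above 0, beside 50.9% of all genes. By RSEM, 28 members lay above both controls and 5 below both in all USP17 siRNA libraries, where the background was 23.5% and 22.7%.

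The upward median rested on siNT. Members lay a median of 0.035, 0.071 and 0.047 log2 above the control mean in siIDT, sino4 and siSMPLT, and siL2 lay at 0.042, within that range, with siNT at -0.042. Between the controls, 63 of 81 members were lower in siNT than in siL2, with a median log2 difference of -0.085. Without siNT the median fold change of the members was 0.0069, and without siL2 it was 0.081. The SD of log2 differences across members was 0.072 to 0.089 between pairs of USP17 siRNA libraries and 0.14 between the controls.

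**Figure D2:**
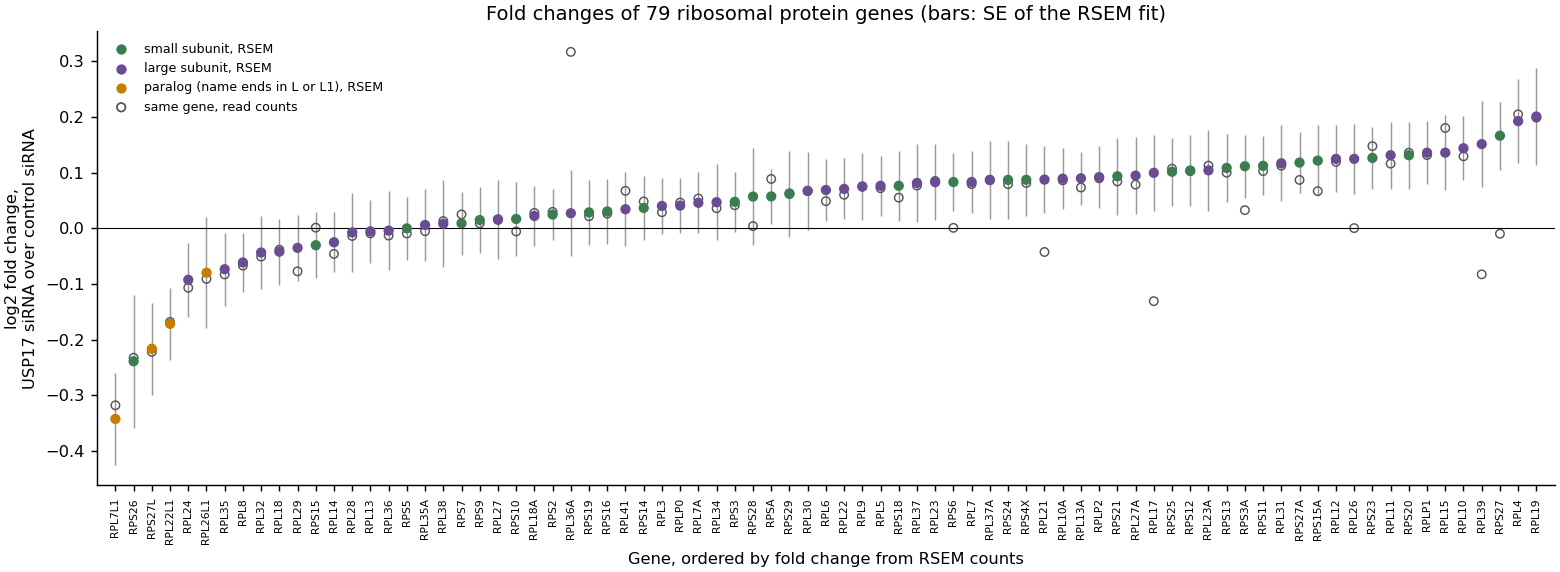
Log2 fold changes (USP17 siRNA over control siRNA) of 79 of the 81 tested members, ordered by the RSEM value. Filled points are RSEM expected counts coloured by subunit, with paralogs in orange and bars of 1 SE, and open circles are read counts of the same gene. Most genes lay between 0 and 0.2, paralogs were among the lowest, and in a few genes, such as RPL36A and RPS27, the read counts departed from the RSEM value.

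RPL7L1, at chr6:42879618-42889925 on the plus strand (GRCh38, GENCODE annotation), is a relative of RPL7 whose yeast counterpart Rlp7 acts in assembly of the large subunit. It had 222, 255 and 249.6 CPM in the siIDT, sino4 and siSMPLT libraries, against 304 and 299 CPM in siL2 and siNT. All 3 USP17 siRNA libraries were lower than both controls, siIDT the most. The log2 fold change was -0.32 with an SE of 0.08 (edgeR adjusted p = 0.0377), and -0.34 with RSEM expected counts (adjusted p = 0.0432). The call held in the 7 alternatives that kept all libraries, and the adjusted p over all 12 alternatives ran from 0.00962 to 0.121. It was lost without siIDT (adjusted p = 0.121), without sino4 (0.119) and without siSMPLT (0.077).

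RPL22L1 is the paralog of RPL22, both of them RNA-binding proteins of the large subunit, and the level of RPL22L1 is known to be held down by RPL22. RPL22L1 had 273, 286 and 279 CPM with USP17 siRNA and 327 and 301 CPM with control siRNA. RPL22 had 143, 144 and 143 CPM with USP17 siRNA and 137 and 138 CPM with control siRNA. The groups did not overlap in either gene, and neither difference passed the test. The log2 fold change was -0.17 for RPL22L1 (SE 0.07, edgeR adjusted p = 0.148) and 0.06 for RPL22 (adjusted p = 0.593). RPL22L1 passed the threshold when siNT was left out (adjusted p = 0.0487) and in none of the other 11 alternatives, whose adjusted p reached 0.348. In TPM from RSEM, the 2 mRNAs stood at similar levels. RPL22L1 had 908, 925 and 912 TPM with USP17 siRNA and 1049.7 and 981 TPM with control siRNA. RPL22 had 897, 901 and 903 TPM with USP17 siRNA and 858 and 869 TPM with control siRNA. The RSEM count was 3.92 times the read count for RPL22 and 1.02 times for RPL22L1, so the RPL22 level depended on how shared reads were assigned.

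RPS27L, a paralog of RPS27 induced by p53 in human cells, had 30.0, 28.7 and 27.6 CPM with USP17 siRNA and 34.8 and 32.4 CPM with control siRNA. The groups did not overlap, and the log2 fold change of -0.22 (SE 0.09) did not pass the test (edgeR adjusted p = 0.136). RPL26L1 had 27.4, 29.5 and 28.1 CPM with USP17 siRNA and 33.0 and 27.4 CPM with control siRNA. These groups overlapped, with a log2 fold change of -0.09 (adjusted p = 0.605). RPL36AL, a retrotransposed copy of RPL36A that the symbol rule does not take in, had 76.9, 86.3 and 81.6 CPM with USP17 siRNA and 107 and 91.2 CPM with control siRNA. It was lower in each USP17 siRNA library and missed the threshold, with a log2 fold change of -0.28 (SE 0.09, adjusted p = 0.0910). Over the 12 alternatives the log2 fold change of RPL36AL ran from -0.39 to -0.16, and its 2 controls differed by -0.23 log2 (siNT minus siL2).

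In the 5 expressed pairs the paralog took a smaller part of the pair's TPM with USP17 siRNA. RPL7L1 was 5.22% ± 0.46 of RPL7 plus RPL7L1 with USP17 siRNA (SD, n = 3) and 6.95% ± 0.07 with control siRNA (SD, n = 2). RPL22L1 was 50.4% ± 0.22 of its pair with USP17 siRNA and 54.0% ± 1.40 with control siRNA. RPL36AL was 17.0% ± 0.51 with USP17 siRNA and 20.1% ± 1.43 with control siRNA. The 2 lesser paralogs lay the same way, RPL26L1 at 3.05% ± 0.10 with USP17 siRNA and 3.42% ± 0.18 with control siRNA, and RPS27L at 1.46% ± 0.07 and 1.95% ± 0.03. None of the 5 pairs overlapped between groups in TPM. The matching share over all pairs of genes was not computed, and 22.7% of single genes lay below both controls by RSEM. By read counts 2 of the 5 pairs overlapped between groups. RPL26L1 made up 30.6%, 26.7% and 27.0% of its pair with USP17 siRNA and 28.6% and 30.1% with control siRNA. RPS27L made up 74.1%, 72.8% and 69.9% with USP17 siRNA and 76.1% and 74.0% with control siRNA. With 3 libraries against 2, an exact two-sided permutation test cannot give a p below 0.2, and it gave 0.2 for each of the TPM shares. The shares combine both genes of a pair. By RSEM the parent's log2 fold change was above 0 and the paralog's below 0 in all 5 pairs, where 64 of the 81 members lay above 0. The values were 0.08 and -0.34 for RPL7 and RPL7L1, 0.07 and -0.17 for RPL22 and RPL22L1, 0.12 and -0.08 for RPL26 and RPL26L1, 0.17 and -0.22 for RPS27 and RPS27L, and 0.03 and -0.26 for RPL36A and RPL36AL. By read counts the parents stood at 0.08 for RPL7, 0.06 for RPL22, 0.00 for RPL26, -0.01 for RPS27 and 0.32 for RPL36A.

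**Figure D3:**
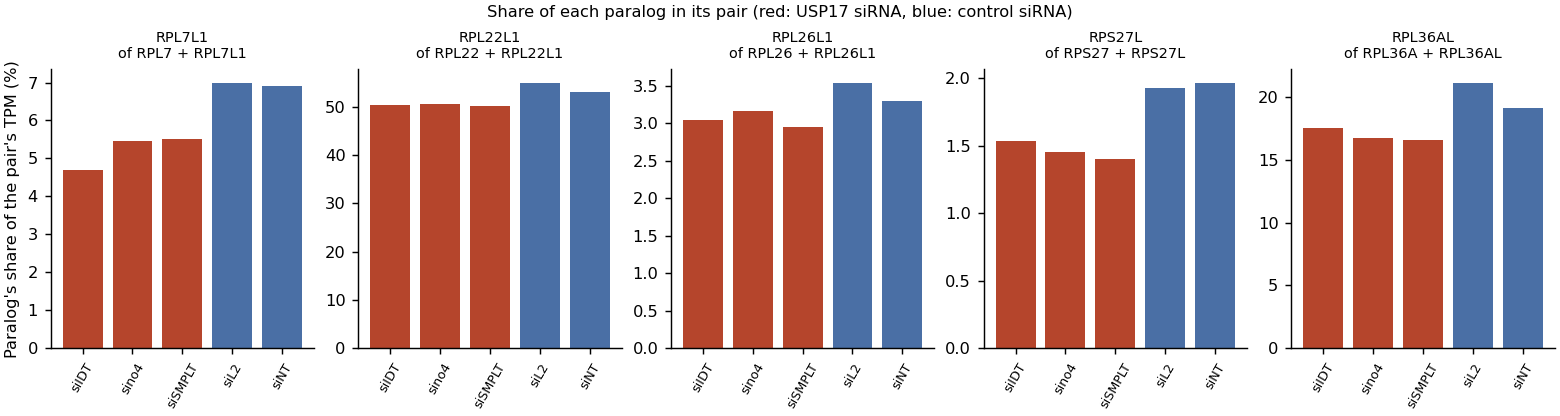
Share of each paralog in the TPM of its pair (bars, in percent, axes from 0), 1 bar per library, USP17 siRNA in red on the left and control siRNA in blue on the right. In all 5 pairs every USP17 siRNA library lay below both controls, from about equal amounts of RPL22 and RPL22L1 to under 2% RPS27L. The share of all gene pairs that lie this way was not computed.

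The tissue-restricted paralogs were close to absent. RPL10L, a testis form of RPL10, had 0 reads in each USP17 siRNA library, and 1 and 0 reads in siL2 and siNT. RPL39L, known from testis and some tumour lines, had 1, 0 and 3 reads with USP17 siRNA and 0 and 2 reads with control siRNA. RPL3L, the striated muscle form of RPL3, had 6 reads in each USP17 siRNA library and 11 and 7 reads in siL2 and siNT. These 3 members fell below the filter on low counts and were not tested. Their parents were abundant, at mean TPM of 3748 for RPL10, 3934 for RPL39 and 2620.5 for RPL3.

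Further members with the smallest p on the lower side did not pass the test. RPS26, which lies by the mRNA exit channel, had 10.5, 12.1 and 10.4 CPM with USP17 siRNA and 13.0 and 12.8 CPM with control siRNA, a log2 fold change of -0.23 (edgeR adjusted p = 0.223). Its RSEM values were 59.0, 70.2 and 69.3 CPM with USP17 siRNA and 86.8 and 69.3 CPM with control siRNA, so most of its signal came from reads shared with other loci. RPL24, RPL35, RPL29 and RPL8 had log2 fold changes of -0.11, -0.08, -0.08 and -0.07 with adjusted p from 0.375 to 0.501. Of these RPL8, which lies near the peptidyl transferase centre, was the one without overlap, at 1349, 1372 and 1375 CPM with USP17 siRNA and 1480.2 and 1380.2 CPM with control siRNA.

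Members with small p on the higher side did not pass the test either. RPL4, part of the wall of the peptide exit tunnel, had 1748, 1728 and 1701 CPM with USP17 siRNA and 1368 and 1627 CPM with control siRNA. No USP17 siRNA library overlapped a control, and the log2 fold change of 0.20 (SE 0.08) missed the threshold (edgeR adjusted p = 0.129). RPL19 had 844, 853 and 856 CPM with USP17 siRNA and 661 and 821 CPM with control siRNA, a log2 fold change of 0.20 (adjusted p = 0.185).

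In both genes siL2 was the low library, so the gap to siNT was small. Without siNT both were called by edgeR, with log2 fold changes of 0.33 for RPL4 and 0.36 for RPL19 and adjusted p of 0.0066 and 0.00613. Without siL2 the values were 0.08 and 0.05 and neither was called. RPL15 went the other way, with siNT low: it had 685, 655 and 607 CPM with USP17 siRNA and 614 and 532 CPM with control siRNA. Its log2 fold change was 0.18 (edgeR adjusted p = 0.196), and 0.29 without siL2 (adjusted p = 0.0421). RPS23, RPS20 and RPLP1 were higher in every USP17 siRNA library than in both controls, with log2 fold changes of 0.15, 0.14 and 0.13 and adjusted p of 0.174, 0.189 and 0.196.

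Members with known roles outside or at special sites of the ribosome showed the same small values. RPL5, RPL11 and RPL23, which can bind MDM2, had log2 fold changes of 0.07, 0.12 and 0.09. RPL11 had 798, 825 and 801 CPM with USP17 siRNA and 717 and 773 CPM with control siRNA, without overlap (edgeR adjusted p = 0.266), and the groups overlapped in RPL5 and RPL23. The stalk proteins, which recruit translation factors, had log2 fold changes of 0.05 for RPLP0, 0.13 for RPLP1 and 0.09 for RPLP2. RPLP2 had 574, 579 and 567 CPM with USP17 siRNA and 535 and 542 CPM with control siRNA. RPS6, the substrate of the S6 kinases, had 1663, 1659 and 1714 CPM with USP17 siRNA and 1713 and 1642 CPM with control siRNA, a log2 fold change of 0.00. RPSA, the laminin receptor precursor, stood at 0.09 and RPL3, at the peptidyl transferase centre, at 0.03, with adjusted p of 0.403 and 0.79. RPL10, which is loaded last onto the large subunit, had a log2 fold change of 0.13 (adjusted p = 0.246).

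Of 10 members mutated in Diamond-Blackfan anemia, a disorder of ribosome assembly, none was called at an adjusted p under 0.05, beside 10.5% of all genes tested. None had an unadjusted p under 0.05, where the background was 14.2% higher and 14.7% lower. Their median log2 fold change was 0.044, with 7 of the 10 above 0, beside 50.7% of all genes. RPS19, the first gene linked to it, had 511, 512 and 514 CPM with USP17 siRNA and 518 and 491 CPM with control siRNA. RPS27A encodes ubiquitin fused to a small subunit protein, so it supplies ubiquitin as well. RPS27A had 739, 761 and 731 CPM with USP17 siRNA and 728 and 672 CPM with control siRNA, a log2 fold change of 0.09 (edgeR adjusted p = 0.414). Outside the symbol rule, FAU, a fusion that yields a small subunit protein, and RACK1, a scaffold on the small subunit, had log2 fold changes of -0.10 and 0.04, and neither was called.

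Per unit of length, 72 of the 84 members were above 1000 TPM and 27 above 3000 TPM (mean of 5 libraries), with a median of 2262 TPM. The highest were RPL41, the smallest ribosomal protein, at 5508 TPM, RPS27A at 4531, RPS27 at 4249, RPL9 at 4241 and RPS2 at 4031. RPL41 had 5396, 5526 and 5818 TPM with USP17 siRNA and 5566 and 5234 TPM with control siRNA, with overlap. The lowest were RPL10L at 0, RPL39L at 0.042, RPL3L at 0.142, RPS27L at 71.0 and RPL26L1 at 99.5 TPM. Among the 77 members that are not such paralogs the lowest was RPS26 at 198 TPM.

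How reads that fit several genes were handled changed the level of many members. The ratio of RSEM expected count to read count, as the mean of 5 libraries, was within 10% of 1 in 28 of the 82 members with reads in every library, between 2 and 10 in 20 and above 10 in 10. It was 241 for RPS10, 72.3 for RPS27, 70.4 for RPL21 and 63.1 for RPL17. It was 58.8 for RPL39, 28.1 for RPL36A, 16.9 for RPS3A, 14.0 for RPL7 and 12.8 for RPL26. The smallest ratios were 0.745 for RPL3L, 0.922 for RPL36, 0.936 for RPS27L, 0.941 for RPLP2 and 0.965 for RPS21. Read counts held 58.0% to 58.6% of the RSEM total for the members.

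Sequence shared with other loci moved with this ratio. The share of a member's 50-base stretches found in another annotated gene was 66.5% in RPS27, 68.8% in RPL17, 57.4% in RPL21 and 83.4% in RPS3A, against 0% in RPS27L and 0.563% in RPS19. Across the 82 genes the ratio and this share had a Spearman correlation of 0.76, given as a description of genes in the same 5 libraries. Exons overlapping another gene on the same strand also remove reads from STAR's count: RPS10 overlaps the readthrough gene RPS10-NUDT3, RPL17 overlaps RPL17-C18orf32, and RPL36A overlaps RPL36A-HNRNPH2. The 1601 annotated ribosomal protein pseudogenes took 0.364%, 0.364% and 0.361% of RSEM counts with USP17 siRNA and 0.355% and 0.330% with control siRNA, the same order of libraries as the members.

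**Figure D4:**
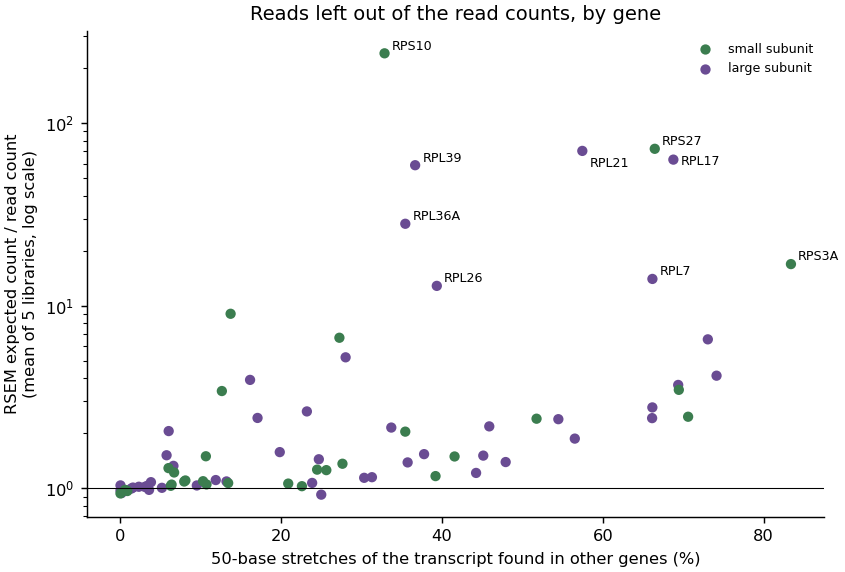
Ratio of RSEM expected count to read count for 79 members (vertical, log scale, mean of 5 libraries) against the percentage of the transcript's 50-base stretches that occur in other annotated genes (horizontal), coloured by subunit. Genes with little shared sequence lay near a ratio of 1, and the 9 labelled genes had ratios above 10.

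Between-group values were less affected than levels. Fold changes from reads and from RSEM had the same sign in 74 of 81 members, with a median absolute difference of 0.0088 and a largest one of 0.29. That largest difference was in RPL36A, which lies at the exit site for tRNA. Its read counts were 11.7, 12.4 and 11.3 CPM with USP17 siRNA and 10.1 and 8.83 CPM with control siRNA, a log2 fold change of 0.32 (edgeR adjusted p = 0.121). Its RSEM values were 256, 287 and 283 CPM with USP17 siRNA and 281 and 259 CPM with control siRNA, a log2 fold change of 0.03 with overlapping groups. RPS27, a zinc-finger protein of the small subunit, showed the reverse. Its read counts overlapped at a log2 fold change of -0.01, and its RSEM values of 746, 781 and 743 CPM with USP17 siRNA and 700.5 and 648 CPM with control siRNA gave 0.17 (adjusted p = 0.127). RPL26 likewise had 0.00 by reads and 0.12 by RSEM, and RPS6 0.00 and 0.08. RPL39, RPL17 and RPL21 changed sign, at -0.08, -0.13 and -0.04 by reads and 0.15, 0.10 and 0.09 by RSEM.

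Members with a pyrimidine run at the start (50 genes) had a median log2 fold change of 0.044 by reads. Those without one (16 tested genes), which included RPL7L1, RPS27L and RPL26L1, had 0.0096 by reads. With RSEM expected counts the medians were close, at 0.064 with a run and 0.059 without one, and a difference was not tested. In 3′ UTRs, the 7-base sequences ATCACTC and TCACTCA were taken up because an earlier look at these libraries had singled them out. They were read on the gene's strand and counted where any annotated 3′ UTR of the gene's coding transcripts held them. ATCACTC occurred in 3 of 81 members (3.70%, RPL14 and RPS29 among them), beside 8.82% of 12469 coding genes. TCACTCA occurred in 5 members (6.17%, among them RPL37, RPL27A, RPS29 and RPS27L), beside 13.5%. Of the genes called lower in the other lists described below, LARP1 and MRPL55 held ATCACTC, EIF4EBP1, NMD3, MRPS23 and MRPS27 held TCACTCA, and MLST8 and the other 10 mitochondrial genes called held neither. Whether either sequence goes with lower levels was not tested. The 2 sequences overlap each other by 6 letters, RPL7L1 and RPL22L1 held neither, and the median longest 3′ UTR was 507 bases in members and 1402 in all coding genes tested.

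Other genes with TOP mRNAs had mixed values. Of 15 tested with edgeR, 1 was higher and none was lower, beside the background of 4.64% and 5.82%. At an unadjusted p under 0.05, 2 were higher, TPT1 and EEF1A1, and 3 lower, EEF2, EIF3E and NPM1. These 3 had log2 fold changes of -0.27, -0.25 and -0.15, with edgeR adjusted p from 0.0626 to 0.145. DESeq2's Wald test called 1 lower. TPT1, the translationally controlled tumour protein, had 2859.8, 2874 and 2628 CPM with USP17 siRNA and 2223 and 2335 CPM with control siRNA. No libraries overlapped, and its log2 fold change was 0.29 (SE 0.06, edgeR adjusted p = 0.0270). The TPT1 call was lost without siIDT (adjusted p = 0.111) and without sino4 (0.140), and its adjusted p over the 12 alternatives began at 0.0144. EEF1A1, the elongation factor that brings tRNA to the ribosome, had a log2 fold change of 0.16 by reads (adjusted p = 0.113) and 0.17 by RSEM (adjusted p = 0.0378), and its RSEM count was 11.3 times its read count.

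Of 11 regulators of TOP mRNAs, 2 were higher and 3 were lower with USP17 siRNA, beside 4.64% higher and 5.82% lower among all genes tested. LARP1 had 362, 361 and 399.9 CPM with USP17 siRNA and 580.1 and 619 CPM with control siRNA. All USP17 siRNA libraries lay far below both controls, with a log2 fold change of -0.68 (SE 0.07, edgeR adjusted p = 0.00396), and LARP1 was called in all 12 alternatives. EIF4EBP2, a translational repressor, was higher with USP17 siRNA, at 305, 274 and 246 CPM against 207 and 180.5 CPM with control siRNA (log2 fold change 0.50, adjusted p = 0.0225). Its relative EIF4EBP1 was lower, at 49.3, 56.9 and 57.6 CPM with USP17 siRNA and 65.9 and 98.3 CPM with control siRNA (log2 fold change -0.59, adjusted p = 0.0474). That call was lost with RSEM expected counts, limma-voom and 4 of the 5 fits that left out a library. TSC2, an inhibitor upstream of mTORC1, was higher (log2 fold change 0.32, adjusted p = 0.0406), and MLST8, a subunit of mTORC1, was lower (-0.37, adjusted p = 0.0253). Among 10 chaperones and assembly factors of ribosomal proteins, NMD3, the export adaptor of the large subunit, was lower (-0.28, adjusted p = 0.0353) and no other was called lower, beside the same 5.82%. None was higher, also at an unadjusted p under 0.05 or with DESeq2 or limma-voom. Fewer calls were made when a USP17 siRNA library was left out: of the regulators LARP1 alone was called without siIDT or without sino4, and NMD3 lost its call in all 3 cases. With no filter on low counts NMD3 (adjusted p = 0.0513) and TSC2 (0.0586) were not called. MLST8 also lost it without siSMPLT (adjusted p = 0.0591), and TSC2 without siSMPLT (0.0624) and without siNT (0.0676).

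Genes of the mitochondrial ribosome, which translates mRNAs made inside mitochondria, gave another picture. Of 77 tested, 13 were lower with edgeR and 18 with DESeq2's Wald test, and none was higher by either tool, by limma-voom or at an unadjusted p under 0.05. The background was 5.82% lower and 4.64% higher, and the median log2 fold change was -0.14. All 3 USP17 siRNA libraries lay below both controls in 5 of 81 cytosolic members and in 49 of these 77 mitochondrial genes, beside 22.6% of all genes tested. As a share of TPM the mitochondrial genes made up 0.702%, 0.704% and 0.701% with USP17 siRNA and 0.794% and 0.772% with control siRNA. The 2 control libraries thus lay above all 3 USP17 siRNA libraries here. In the cytosolic share both lay below them, siNT the lowest. MRPL55 had 4.53, 5.58 and 5.10 CPM with USP17 siRNA and 12.4 and 10.2 CPM with control siRNA, a log2 fold change of -1.16 (SE 0.14, edgeR adjusted p = 0.00505). The other 12 called were MRPS9, MRPL12, MRPS10, MRPS2, MRPL36, MRPL4, MRPS27, MRPS23, MRPS34, MRPS15, MRPL10 and MRPL3, with log2 fold changes from -0.45 to -0.27. RSEM expected counts called 11 of 78, and read counts with no filter on low counts called 7. Leaving out 1 library gave 1 lower gene each without siIDT or sino4, 4 without siSMPLT, 10 without siL2, and 17 lower with 1 higher without siNT. The difference between the 2 families was not tested.

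**Figure D5:**
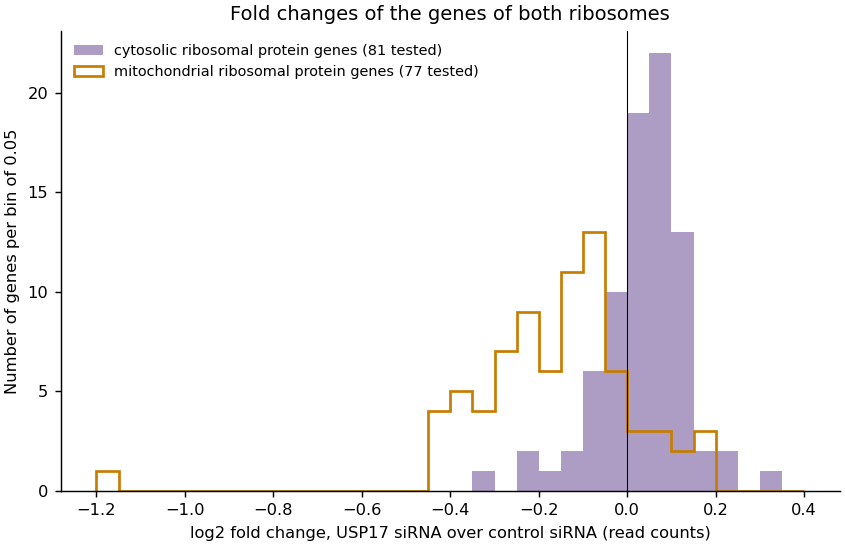
Histogram of log2 fold changes (USP17 siRNA over control siRNA, read counts, bins of 0.05) of the 81 cytosolic (filled) and 77 mitochondrial (outline) ribosomal protein genes tested. The cytosolic genes peaked between 0 and 0.1, and the mitochondrial genes were spread mostly below 0, with MRPL55 at -1.16.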

How the data were processed

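Per the submitters' processing notes, bcl2fastq 2.20, STAR 2.7.1a and RSEM 1.3.2 were used with the GRCh38 build. No annotation release or strand setting was found in the sources used here. Deposited read counts follow the STAR gene table and hold whole numbers of reads that map to 1 place. The own-strand column was used (its total was 18.7 to 19.9 times that of the opposite strand). Rows that name no gene held 22.8% to 24.4% of reads and were left out. The deposited RSEM tables give the authors' expected counts, rounded here to whole numbers, and TPM, which suits comparison between genes. The posterior SD of each count, a signal column deposited by the authors in the same tables, was read to describe RSEM's uncertainty and is not printed.

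Read counts were fitted in R 4.3.3 with edgeR 4.0.16 across all genes: filterByExpr (minimum count 10, minimum total 15), TMM scaling, quasi-likelihood F test, two-sided, Benjamini-Hochberg adjustment at 0.05, all 5 libraries, no covariates, tested on simulated data. RSEM counts were fitted the same way. CPM values use TMM-scaled library sizes. Alternatives were DESeq2 1.42.0 (size factors, Wald test), limma-voom (limma 3.58.1), no filter, unstranded counts, scaling without the members, an adjusted p of 0.10 and leaving out each library. Symbols matched 42061 gene identifiers, and coordinates came from GENCODE release 29, which lists 58405. Start sequences came from RefSeq (GRCh38.p14). Shared 50-base stretches, starts and 3′ UTRs were searched in Python 3.11.15.

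Members named with values were those called, all paralog pairs, the 8 smallest p in each direction, a list of members with known roles, the 5 highest and 5 lowest by TPM, the 5 largest and smallest ratios of expected to read counts, and called genes of the other lists; others were named after their values were seen, and 3 genes under this rule are not reported here. The members and lists were chosen with earlier results of these data known. Replicate numbers were given in accession order and do not pair libraries.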

Additional observations from a re-analysis of the deposited data

How the results depend on the processing

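Leaving out 1 library changed more calls and signs of named genes than any other choice. The number of genes called, 1710, ran from 130 (without sino4) to 2633 (without siNT) when 1 library was left out and was 3074 at an adjusted p of 0.10. Members called, 1 in all, ran from 0 to 5 and were 2 at an adjusted p of 0.10. The members' median log2 fold change ran from 0.0069 to 0.081. Their SD ran from 0.097 to 0.16, and was 0.20 with DESeq2's Wald test, 0.28 with no filter and 0.11 with unstranded counts. The share of reads in members, USP17 minus control siRNA, was 0.271 percentage points, 0.139 to 0.404 with 1 library left out and 0.438 with RSEM. The RPL22L1 share by reads differed by -3.43 percentage points, with a range of -4.34 to -2.53. Of 792 comparisons over 66 named genes and 12 alternatives, 682 kept direction and call, 74 lost the call, 6 gained it and 30 changed sign. Sign changes all fell on 11 members not called. With RSEM expected counts they were RPL17 (0.10), RPL21 (0.088), RPL39 (0.15), RPS10 (0.017) and RPS27 (0.17). RPL26 was -0.0047 with DESeq2 size factors, -0.0071 with the Wald test and -0.028 with unstranded counts, and RPS6 was -0.0042, -0.0068 and -0.0089 under the same choices. RPS10 was 0.018 with limma-voom. With 1 library left out, log2 fold changes ran from -0.27 to 0.027 for RPL17, -0.17 to 0.20 for RPL26, -0.22 to 0.047 for RPL26L1, -0.022 to 0.081 for RPL3, -0.081 to 0.057 for RPL36, -0.36 to 0.26 for RPL39, -0.29 to 0.34 for RPS10, -0.016 to 0.060 for RPS19, -0.068 to 0.026 for RPS27 and -0.030 to 0.031 for RPS6. The cause was not tested. Scaling without the members changed no call or sign of the 66 named genes and called 1723 genes in all. Members with few uniquely mapped reads, such as RPS10, had the widest SE. No paired analysis was possible because the labels carry no replicate numbers.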
